A study of Mus musculus with 15 samples.

Results

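Cumulus cells of juvenile and adult mouse ovaries were compared before ovulation, while the oocyte was still in prophase I. The comparison uses 10 of the 15 arrays of the series, chosen by their labels: 5 of juvenile complexes (NC1) and 5 of adult complexes (C1). All cells came from B6CBAF1/J mice, and no hormone treatment is named for these stages. The phase of the estrous cycle of the adults is not given in the sources used here. NC1 cells came from animals of 3 weeks, whose oocytes could resume meiosis but were labelled developmentally incompetent. C1 cells came from animals of 8 weeks, whose oocytes were labelled developmentally competent. At both stages large follicles were punctured in M2 medium, unexpanded cumulus-oocyte complexes were collected, and the oocytes were freed by pipetting and taken out. Per the study's methods each array held the RNA of 1 pool of several animals, labelled with Cy3. The other 5 arrays (C2) held adult cumulus cells of ovulated complexes after superovulation, and they enter here only through the shared estimate of the spread and a few levels given for reference. Because every NC1 pool was juvenile and every C1 pool adult, oocyte competence and age cannot be told apart. The p-values measure the spread among these pools.

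Cumulus cells are the granulosa cells that enclose the oocyte. They pass amino acids, pyruvate and cyclic nucleotides to it through gap junctions, and the oocyte in turn secretes factors that hold them in the cumulus state. Granulosa cells closer to the follicle wall, the mural granulosa, carry the receptor for luteinizing hormone and make most of the estradiol, and after ovulation the wall cells luteinize and make progesterone from cholesterol. In the mouse, corpora lutea are present in the cycling adult ovary and absent before puberty. Steroid synthesis starts with cholesterol, taken up from lipoproteins, in part through Scarb1, and carried into the mitochondrion by Star. There Cyp11a1, supplied with electrons by Fdxr and Fdx1, cuts the side chain to give pregnenolone. Hsd3b enzymes turn pregnenolone into progesterone, which Akr1c18 inactivates in the rodent ovary, a step known from the regressing corpus luteum.

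All values below are log2 intensities from the deposited table, with the array's median over the tested probes subtracted, so that a level of 0 is the median tested probe and a change of 1 is 2-fold. A probe was tested when it was scored present at all 3 stages. This left 17342 probes, 15858 of them with a gene symbol. A probe was called when the adjusted p of limma was under 0.01. The median SD between arrays of the same stage was 0.21 at NC1 and 0.23 at C1. The number of probes well above background was 20002 to 22298 at NC1 and 19167 to 24493 at C1. Genes that mark cumulus and granulosa cells were expressed at both stages, beside markers of other cells described below. Of 16 such genes, 15 were tested and none was called by limma, with a median change of -0.05. Of these 15, 1 had an unadjusted p under 0.05, and none was called under any alternative. Inha ranged from 6.59 to 7.12 at NC1 and from 6.67 to 7.13 at C1. Amhr2, the receptor of anti-Müllerian hormone, ranged from 5.28 to 5.50 and from 5.39 to 5.56. The estrogen receptor Esr2, Foxl2 and Fshr overlapped between the stages as well. In bulk RNA, fewer cells of a type and less RNA per cell cannot be told apart, and this holds for every level given here.

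Juvenile and adult cumulus differed at 440 of the 17342 probes (2.54%). Of these, 306 were higher at C1 (1.76% of the tested probes) and 134 were lower (0.773%). The called probes with a symbol represent 385 genes, 269 of them higher and 116 lower. At least 2-fold changes were seen for 234 higher and 49 lower probes, and at least 4-fold changes for 62 and 14. The share of called probes that were higher was 69.5% (95% Wilson interval 65.1 to 73.7, for counting error only). It was 91.2% with spike-in scaling, 78.3% without C1 replicates 3 and 4, and 75.6% without NC1 replicates 1 and 2. The median change over all tested probes was -0.03, and it moved to -0.14 with the values as deposited and to 0.12 with spike-in scaling. The values of the 5 NC1 and 5 C1 arrays did not overlap for 1036 probes (5.97%), and for 416 of the 440 called ones. With 1 probe a gene, 372 of 12660 genes were called (2.94%), 264 of them higher (2.09%) and the rest lower (0.853%). Gene lists below are read against these shares and against the median change of -0.03 over the 12660 genes.

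**Figure D1:**
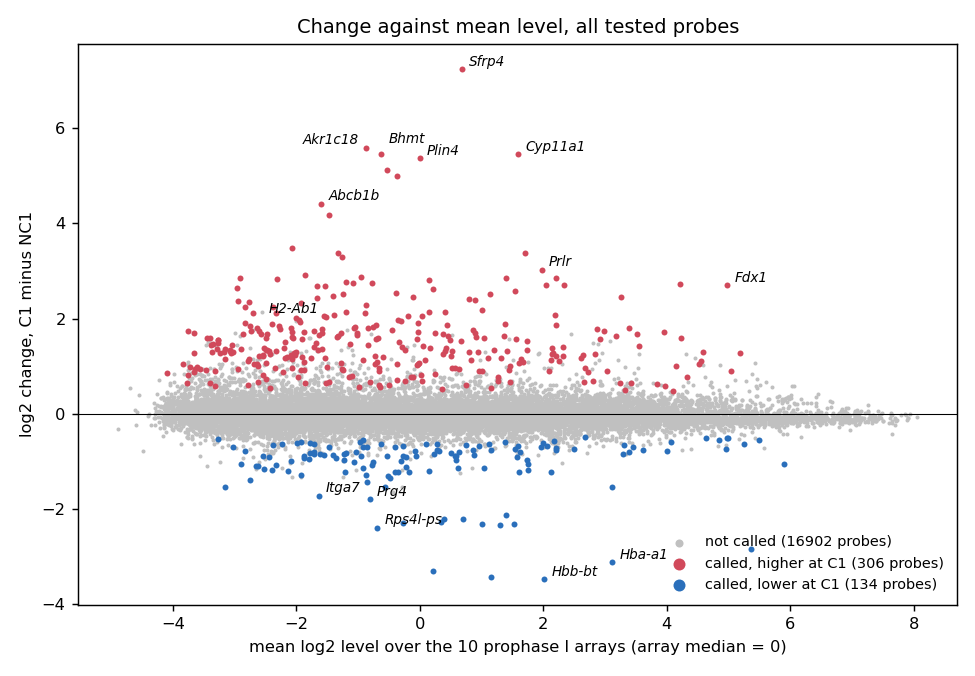
Each point is 1 of the 17342 tested probes, with the mean log2 level over the 10 prophase I arrays (x) and the log2 change, C1 minus NC1 (y). Red points are the 306 probes called higher at C1, blue points the 134 called lower and grey points those not called; the largest changes are upward, with Sfrp4 at 7.24, and the haemoglobins lie lowest.

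The arrays were spread over 4 slides, each with arrays of both stages. With the slide as a block 338 probes were called, of which 327 were among the 440. Of the 440 called probes, 439 changed in the same direction within all 4 slides. For 416 of the 440 the stages did not overlap, which fixes the direction within every slide. This count is therefore no separate check of the slides. C1 replicates 3 and 4 stood apart from the other C1 arrays in dim spots: the array of C1 replicate 3 had the lowest median intensity, and that of C1 replicate 4 had the most probes well above background (24493). NC1 replicates 1 and 2 stood apart in the markers of red blood cells, stroma and oocyte described below. Without C1 replicates 3 and 4, 397 probes were called. Without NC1 replicates 1 and 2, 356 probes were called, 300 of them among the 440.

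The highest change was that of Sfrp4, which encodes a secreted frizzled-related protein that binds Wnt ligands. Its level was -2.91, -2.95, -2.83, -3.07 and -2.91 in NC1 replicates 1 to 5. It was 4.49, 4.43, 2.81, 5.17 and 4.61 in C1 replicates 1 to 5. The juvenile arrays lay close together, and the lowest adult array, C1 replicate 3, was far above them. The change was 7.24 ± 0.29, 151-fold, with an adjusted p of 2.19e-10 by limma. Within the slides it ranged from 5.80 to 8.00. Here and below, ± after a change is the SE of the limma fit (n = 5 and 5), with a spread shared over all 15 arrays. The SD of Sfrp4 was 0.09 at NC1 and 0.88 at C1, so its adult arrays varied more than the shared spread. At C2 its mean was 4.79 ± 0.13 (SD, n = 5).

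Cyp11a1, the cholesterol side chain cleavage enzyme, was at -0.63, -1.79, -0.96, -1.23 and -1.07 in the NC1 arrays. It was at 4.72, 4.39, 3.49, 3.99 and 5.00 in the C1 arrays. The stages did not overlap, and the difference was 5.46 ± 0.27, or 43.9-fold (limma, adjusted p = 3.35e-09). Akr1c18, the progesterone-inactivating 20-alpha-hydroxysteroid dehydrogenase, was at -4.05, -3.48, -4.32, -3.44 and -3.07 at NC1 and at 1.96, 1.44, 0.49, 1.30 and 4.42 at C1. C1 replicate 5 was well above the other adult arrays. The change was 5.59 ± 0.51, 48.3-fold (limma, adjusted p = 2.99e-06), and it was 4.97, or 31.4-fold, without C1 replicate 5. Akr1c18 was above background in 4 of 5 NC1 arrays, and its smallest change under any alternative fit was 4.53. At C2 the mean level of Akr1c18 was 7.08, above its C1 mean of 1.92, whereas Cyp11a1 was at 5.20 beside its C1 mean of 4.32.

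Bhmt, betaine-homocysteine methyltransferase, makes methionine from homocysteine with betaine as the methyl donor. It was at -3.82, -3.39, -3.16, -3.10 and -3.34 at NC1 and at 2.96, 2.93, 2.19, 0.47 and 1.97 at C1. C1 replicate 4 was the lowest adult array and still lay above every juvenile one. The change was 5.46 ± 0.41, 44.1-fold (limma, adjusted p = 3.69e-07). The C2 mean was -1.33, below the C1 mean of 2.10. The stretch before its RefSeq start is shown together with those of Abcb1b and H2-Eb1, described below, since among the called genes looked up these held the motifs searched. The sequences are 250 bases that end at the base before the start, 5′ to 3′ on the strand of the gene, from RefSeq on build GRCm38.p6, in lower case with the matches to 1 motif each in capitals.
Bhmt (chr13:93637759-93638008, minus strand, AAGGTCA in capitals): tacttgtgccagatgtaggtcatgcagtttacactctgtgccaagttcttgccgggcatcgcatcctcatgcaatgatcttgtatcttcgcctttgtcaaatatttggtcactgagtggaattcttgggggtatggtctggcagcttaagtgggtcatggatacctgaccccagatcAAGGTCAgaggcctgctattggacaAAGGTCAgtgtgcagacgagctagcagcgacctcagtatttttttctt
Abcb1b (chr5:8797897-8798146, plus strand, CTGATTGG in capitals): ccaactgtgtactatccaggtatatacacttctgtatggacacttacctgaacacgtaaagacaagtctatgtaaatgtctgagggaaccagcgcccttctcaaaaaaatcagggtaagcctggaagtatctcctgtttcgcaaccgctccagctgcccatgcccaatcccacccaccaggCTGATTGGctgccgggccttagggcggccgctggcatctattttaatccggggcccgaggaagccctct
H2-Eb1 (chr17:34305617-34305866, plus strand, CTGATTGG in capitals): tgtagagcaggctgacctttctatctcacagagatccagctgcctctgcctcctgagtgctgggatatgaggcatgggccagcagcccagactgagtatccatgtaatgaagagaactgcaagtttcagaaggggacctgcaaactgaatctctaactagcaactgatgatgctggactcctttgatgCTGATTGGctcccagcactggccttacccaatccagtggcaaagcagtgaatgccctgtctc
AAGGTCA is the half-site that nuclear receptors such as Nr5a1 and Nr5a2 can bind, and CTGATTGG is the Y box, which holds CCAAT on the other strand and is known from class II promoters. The motifs were chosen with the gene results known, both strands were searched, and no matches overlapped. Bhmt held AAGGTCA at 2 places, 67 to 73 and 42 to 48 bases before the start. Of 32851 promoter stretches of the same length, 4.08% held it at least once and 0.128% at 2 or more places. The Y box lay 62 to 69 bases before the start of Abcb1b and 55 to 62 bases before that of H2-Eb1, and 3.83% of the stretches held it. H2-Eb1 also held AAGGTCA on its other strand. The stretches of Akr1c18, Cyp11a1, Plin4, Fdx1, Prlr, Oxtr, Hsd3b6, Abcb4, Ptgfr and Lhcgr held neither motif. These matches describe the letters only.

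**Figure D2:**
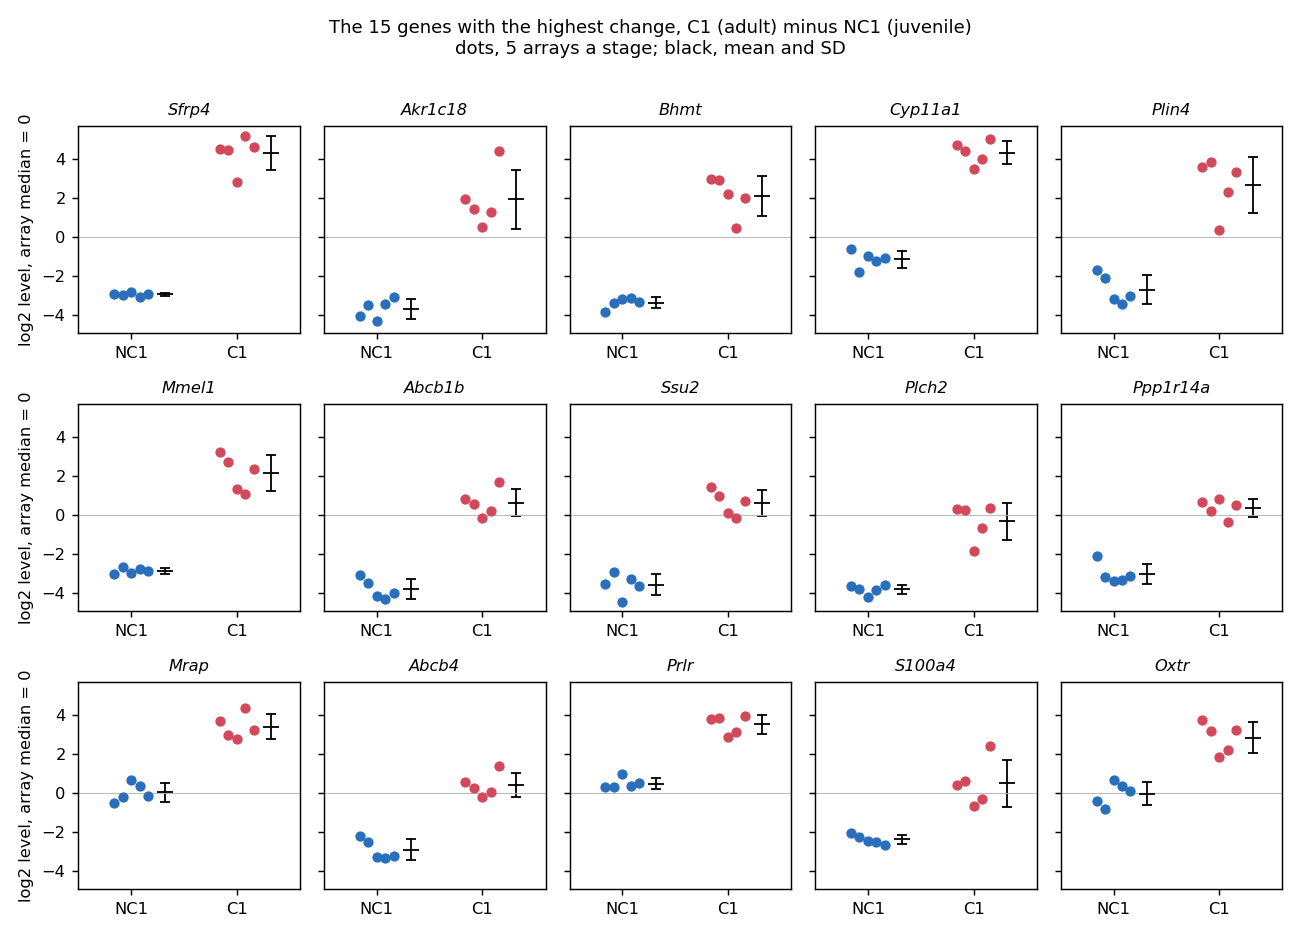
Log2 level (y, array median = 0) of the 15 genes with the highest change among called genes without overlap, by stage (x). Dots are the 5 arrays of NC1 (blue) and of C1 (red), in the order of the replicate numbers, and the black marks give mean and SD. By this choice no juvenile array reaches the level of any adult one in the 15 genes. Akr1c18 and S100a4 have their highest adult value in C1 replicate 5.

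Plin4, which coats lipid droplets, was at -1.69, -2.12, -3.17, -3.43 and -3.03 at NC1 and at 3.56, 3.85, 0.34, 2.31 and 3.35 at C1. The change was 5.37 ± 0.56, 41.4-fold (limma, adjusted p = 1.53e-05). C1 replicate 3 was the lowest adult array, and without it the change was 5.96, or 62.2-fold. Mmel1, a membrane metalloendopeptidase, was 32.0-fold higher (limma, adjusted p = 6.5e-08). Abcb1b, a P-glycoprotein that exports lipophilic compounds, ranged from -4.32 to -3.05 at NC1 and from -0.17 to 1.66 at C1, 21.3-fold higher. Abcb4, its neighbour in the same family and a phosphatidylcholine translocator, was 9.88-fold higher. The oligonucleotides of these related genes may share signal, so that the changes of Abcb1b and Abcb4 are uncertain as separate results. Both were higher still at C2, with means of 3.94 and 3.50.

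Prlr, the prolactin receptor through which prolactin maintains the rodent corpus luteum, was at 0.27, 0.28, 0.93, 0.32 and 0.49 at NC1. It was at 3.76, 3.81, 2.84, 3.10 and 3.94 at C1. The change was 3.03 ± 0.22, 8.17-fold (limma, adjusted p = 2.32e-07). Oxtr, the oxytocin receptor, was at -0.41, -0.82, 0.63, 0.33 and 0.07 at NC1 and at 3.74, 3.15, 1.82, 2.17 and 3.23 at C1, 7.28-fold higher (limma, adjusted p = 8.4e-05). Mrap, which carries melanocortin receptors to the cell surface, was 10.3-fold higher. Plch2, a phospholipase C, and Ppp1r14a, an inhibitor of myosin phosphatase, were 11.2-fold and 10.4-fold higher. Ssu2 was 18.0-fold higher and the calcium-binding protein S100a4 was 7.30-fold higher. These genes were picked among called genes without overlap, so that each adult array was above each juvenile array. Their calls remained when any 1 array was left out. The changes of Plch2 and Ssu2, 3.49 and 4.17, were as small as 2.48 and 3.13 under the alternative fits.

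Among the 18 pathway lists, steroid synthesis had the largest share of called members. Of its 18 tested members 8 were called (44.4%), all higher at C1, and the median change was 0.60. Beside Cyp11a1 and Akr1c18, the called members serve cholesterol uptake, electron supply and later conversions. Fdx1, the electron donor of Cyp11a1, was at 3.51, 3.61, 3.90, 3.45 and 3.66 at NC1 and at 6.48, 6.24, 6.36, 6.13 and 6.42 at C1. Its change was 2.70 ± 0.10, 6.49-fold (limma, adjusted p = 2.19e-10), with little spread at either stage. Fdxr, which reduces Fdx1, was 1.71-fold higher. Scarb1, which takes up cholesterol esters from high density lipoprotein, was 2.70-fold higher. Hsd3b6 was 2.16-fold higher. Hsd17b7, an enzyme of estradiol and cholesterol synthesis, was at 1.45, 1.34, -1.25, 1.37 and 1.51 in the C1 arrays, so that C1 replicate 3 stood just above the juvenile arrays, which ranged from -1.89 to -1.45. Its change was 2.55 ± 0.39 (limma, adjusted p = 0.000649). The call of Fdxr was lost when any of 4 of the 10 arrays was left out (adjusted p up to 0.0148), and Fdxr and Hsd3b6 were not called with spike-in scaling or with the values as deposited.

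Other members of the later steps did not pass the test. Hsd3b1 ranged from 6.54 to 7.14 at NC1 and from 6.74 to 7.28 at C1, with a change of 0.12 (95% interval -0.16 to 0.40). Hsd17b1, which makes estradiol from estrone, had a change of -0.01 (-0.34 to 0.31), and the regulator Nr5a2 had -0.01 (-0.46 to 0.44). Cyp19a1, the aromatase, was at 1.99, 3.12, 3.46, 2.84 and 2.30 at NC1 and at 4.58, 2.56, 3.11, 3.02 and 2.60 at C1, so that C1 replicate 1 alone was above the juvenile range. Cyp17a1, the androgen-forming enzyme of theca cells, had a change of -0.29. Hsd17b4, a peroxisomal enzyme, had a change of -0.39 with an adjusted p of 0.0128 by limma and passed with array weights, with quantile normalization, with unmoderated variances and without NC1 replicate 2. Stard4, which carries cholesterol in the cytosol, had a change of 0.97 (limma, adjusted p = 0.0163).

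Star and some receptors were not tested because they were at or near background at NC1. Signal clear of background in every adult array and no juvenile one was found for 35 probes, 34 of them with a symbol. The opposite pattern was found for 1 probe without a symbol. Without C1 replicate 3 the first count was 60, and without C1 replicate 4 the second was 32. For these a lower bound of the fold is given, the C1 mean against the detection floor of the NC1 arrays. Ptgfr, the prostaglandin F receptor through which luteolysis is triggered, was at least 36.6-fold higher at C1. The vasoactive peptide gene Apln was at least 28.9-fold higher, the lipid kinase Pik3c2g at least 28.6-fold, Star at least 22.2-fold and the aminopeptidase Xpnpep2 at least 20.6-fold. With background correction by normexp these bounds were 14.8, 9.49, 10.4, 10.6 and 8.19. Another probe of Star was above background in 2 NC1 arrays. It was at -3.93, -3.82, -5.46, -5.43 and -5.17 at NC1 and at 2.27, 0.74, -0.99, 1.40 and 1.18 at C1. Lhcgr, the receptor of luteinizing hormone, which is known from mural granulosa and luteal cells rather than cumulus, was chosen after its values were seen. It was above background in 0 of 5 NC1, all 5 C1 and 3 of 5 C2 arrays, at least 12.1-fold higher at C1, or at least 5.87-fold with normexp.

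Among the receptors of gonadotropins, prolactin, prostaglandins and steroids, Prlr was the called member of 10 tested, and the median change was -0.21. Fshr had a change of 0.22 (limma, adjusted p = 0.683). Igf1r, Esr2 and Ghr had changes of -0.28, -0.49 and -0.22.

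Lipid metabolism beyond sterols had 5 of 29 tested members called, all higher at C1, with a median change of 0.37. Beside Plin4 these were Scd1, the desaturase of stearic acid, Acsl4, which activates arachidonic acid, the elongase Elovl6 and the monoglyceride lipase Mgll. Scd1 was at -3.10, -4.34, -3.78, -3.66 and -3.79 at NC1 and at -0.53, -0.57, -2.11, -0.49 and -0.80 at C1, 7.12-fold higher (limma, adjusted p = 1.07e-05). Its change of 2.83 was as small as 1.89 under the alternative fits. Acsl4 ranged from 0.83 to 1.54 at NC1 and from 2.97 to 3.59 at C1, 4.20-fold higher (limma, adjusted p = 1.58e-07). Elovl6 was 2.90-fold higher. Mgll was 3.19-fold higher but overlapped between the stages, and its call was lost when any of 8 arrays was left out (adjusted p up to 0.0307). Scd2, Fabp5, Elovl5 and Plin3 had changes of 0.07, -0.31, 0.42 and 0.04 and were not called.

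Of 21 tested members of the glycolysis and glucose uptake list 1 was called higher and 1 lower, 6 had an adjusted p under 0.05 by limma and 13 an unadjusted p under 0.05. A total of 18 had a positive change and the median was 0.39, against -0.03 over all genes. Under the other scalings the median ranged from 0.28 to 0.53. Aldoc, an aldolase, was 1.88-fold higher (limma, adjusted p = 0.0079), and its call was lost when any of 7 arrays was left out (adjusted p up to 0.0234). Slc2a4, the insulin-dependent glucose transporter, fell by 1.10 on the log2 scale (limma, adjusted p = 0.000998). Ldha, Gapdh and Gpi1 had changes of 0.36, 0.22 and 0.22. Aldoa had a change of 1.07 (limma, adjusted p = 0.15), with NC1 replicate 4 at 2.87 and the other juvenile arrays between 4.95 and 5.64.

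In the betaine, methionine and folate list of 14 tested members, Bhmt was called higher and Sardh lower. Sardh, which breaks down sarcosine, a product of betaine, was 1.71-fold lower (limma, adjusted p = 0.00482), a call that was lost when any of 7 arrays was left out (adjusted p up to 0.017). Mat2a, Mat2b, Cbs and Aldh7a1 had changes of -0.05, -0.11, -0.10 and 0.16, and the median of the list was -0.04. The related gene Bhmt2 was at background in all arrays of both stages.

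Of the Wnt list 21 members were tested and 3 were called. Beside Sfrp4, the ligand Wnt5a was higher at C1: it was at -2.83, -3.59, -3.58, -3.58 and -3.77 at NC1 and at -1.62, -1.19, -2.63, -1.96 and -1.24 at C1. Its change was 1.74 ± 0.24, 3.34-fold (limma, adjusted p = 0.000265), and its C2 mean was -3.53. Dkkl1, related to the Dickkopf inhibitors, was 1.85-fold lower (limma, adjusted p = 0.00543), a call lost when any of 6 arrays was left out (adjusted p up to 0.0177). Wnt4, Fzd3, Lrp6 and Dkk3 had changes of 0.15, -0.29, -0.23 and 0.03. The median of the list was 0.03.

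The TGF beta family, which carries the signals of the oocyte and the inhibins and activins of the granulosa, had 2 of 31 tested members called. Id2, an inhibitor of basic helix-loop-helix factors and a target of BMP signalling, was at -0.30, -0.16, 0.25, -0.01 and 0.09 at NC1. It was at 1.95, 1.64, 2.90, 0.91 and 1.28 at C1, 3.39-fold higher (limma, adjusted p = 0.00068). Smad1, which conveys BMP signals, was 1.49-fold higher, a call lost when any of 3 arrays was left out (adjusted p up to 0.0132). Inha, Inhba, Inhbb and Fst had changes of -0.05, 0.41, -0.27 and -0.15 and were not called. Of 10 tested Hedgehog and Notch members none was called by limma, while 3 had an unadjusted p under 0.05 and at most 1 was called under any alternative. Ihh and Dhh, the ligands made by granulosa cells, had changes of -0.03 and -0.07.

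The ovulatory response list holds genes that luteinizing hormone induces before ovulation. Of 13 tested members 3 were called, all higher at C1. The matrix protease Adamts1 ranged from -0.04 to 0.30 at NC1 and from 0.97 to 2.40 at C1, 3.08-fold higher (limma, adjusted p = 0.000327). The transcription factor Runx2 was 3.03-fold higher and the protease inhibitor Timp1 2.25-fold higher. Areg and Ptgs2, which the ovulatory surge induces, were above background in 0 NC1 arrays and in 1 C1 array each, and Has2 and Ptx3 of the cumulus matrix were above background in all 5 NC1 arrays and in 2 and 1 C1 arrays. Tnfaip6, a protein of the expanded matrix, was at 2.71 in C1 replicate 4 and between -3.77 and -2.90 in the other C1 arrays, and was not called. Vcan, Cebpb and Rgcc had changes of 0.49, 0.45 and 0.12, and the median of the list was 0.49. The immediate early genes, which answer to hormones and to handling, had 2 of 19 tested members called, both higher, with 17 positive changes and a median of 0.34. Atf3 was 3.55-fold higher and Dusp1 2.40-fold higher, and the calls were lost when any of 6 and 8 arrays were left out (adjusted p up to 0.0227 and 0.0264). Jun, Egr1 and Nr4a1 had changes of 0.13, 0.12 and 0.01.

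Matrix genes moved in both directions, with 5 of 32 tested members called higher and 4 lower. Adamts1, Timp1 and Timp3, an inhibitor of metalloproteases that was 2.62-fold higher, were among the higher ones. The cathepsins Ctss and Ctsb were 2.79-fold and 1.57-fold higher. The metalloproteases Mmp11 and Mmp23, the laminin chain Lamb1 and the cathepsin inhibitor Cst3 were 1.72-fold, 1.54-fold, 1.58-fold and 1.47-fold lower. Mmp11 ranged from 4.26 to 4.61 at NC1 and from 3.39 to 3.74 at C1 (limma, adjusted p = 0.000544). The calls of Ctss, Ctsb, Mmp23 and Cst3 were lost when any of 8, 7, 8 and 7 arrays were left out (adjusted p up to 0.0257), and none of the 4 lower genes was called with spike-in scaling. Sparc had a change of 0.58 with an adjusted p of 0.0105 by limma.

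Among angiogenic and vasoactive signals 1 of 13 tested members was called higher and 1 lower. Vegfa was at 0.16, 0.28, -0.14, -0.37 and 0.23 at NC1 and at 1.48, 0.84, 1.21, 0.83 and 0.64 at C1, 1.96-fold higher (limma, adjusted p = 0.00233). The inducible nitric oxide synthase Nos2 ranged from 1.99 to 2.44 at NC1 and from 0.89 to 1.67 at C1, 1.97-fold lower (limma, adjusted p = 0.00145). In the IGF list 2 of 15 tested members were called higher and 1 lower. Pappa, a protease that frees IGF from its binding protein Igfbp4, was at -4.10, -4.68, -4.66, -4.13 and -4.16 at NC1 and at -2.16, -1.54, -1.31, -0.69 and -1.78 at C1. It was 7.22-fold higher (limma, adjusted p = 6.37e-05). This is a change of 2.85, which was as small as 1.91 under the alternative fits. Stc2, an inhibitor of Pappa, was 1.94-fold higher and Igfbp4 was 1.79-fold lower, calls that were lost when any of 5 and 8 arrays were left out (adjusted p up to 0.0146 and 0.0294). Igf1 had a change of -0.42 and was not called.

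The cell cycle had 1 of 28 tested members called. Cdkn1a, the inhibitor of cyclin-dependent kinases also known as p21, ranged from -2.84 to -2.39 at NC1 and from -1.87 to -0.94 at C1. It was 2.44-fold higher (limma, adjusted p = 3.71e-05), and its C2 mean was 2.05. Mki67, Pcna, Mcm6 and Cdc20, which mark cycling cells, had changes of -0.27, 0.26, -0.13 and -0.28. Among integrins, cadherins and claudins, 1 of 19 tested was called: the laminin receptor subunit Itga7 was at -0.45, -0.99, -1.14, -0.48 and -0.83 at NC1 and at -2.03, -2.93, -2.88, -2.02 and -2.64 at C1, 3.30-fold lower (limma, adjusted p = 3.46e-05). In the list of gap junctions and amino acid supply, 1 of 15 was called. This was the glutamine transporter Slc1a5, 1.52-fold higher, with a call that was lost when any of 7 arrays was left out (adjusted p up to 0.0344). Gja1, the main connexin of granulosa cells, had a change of -0.25. A pair of members that did not pass at C2 were lower at C1 when the 18649 probes present at NC1 and C1 were tested. The connexin Gjc1 was at 0.11, -0.38, -0.06, 0.32 and -0.28 at NC1 and at -2.15, -2.53, -2.28, -1.47 and -1.87 at C1, 4.00-fold lower (limma, adjusted p = 0.000935). The amino acid transporter Slc38a4 was at -1.24, -1.48, -0.90, -1.40 and -1.44 at NC1 and at -2.58, -3.08, -1.92, -2.29 and -2.72 at C1, 2.33-fold lower (limma, adjusted p = 0.000667). In that test 69 members of all lists were added, of which these 2 were called lower and the endothelial receptor Flt1 higher (2.74-fold, limma, adjusted p = 0.0098). Over all its 18649 probes the same test called 462, 304 of them higher and 158 lower. Of 31 antioxidant and glutathione enzymes none was called by limma, while 11 had an unadjusted p under 0.05 and at most 2 were called under any alternative. Their median change was 0.11.

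**Figure D3:**
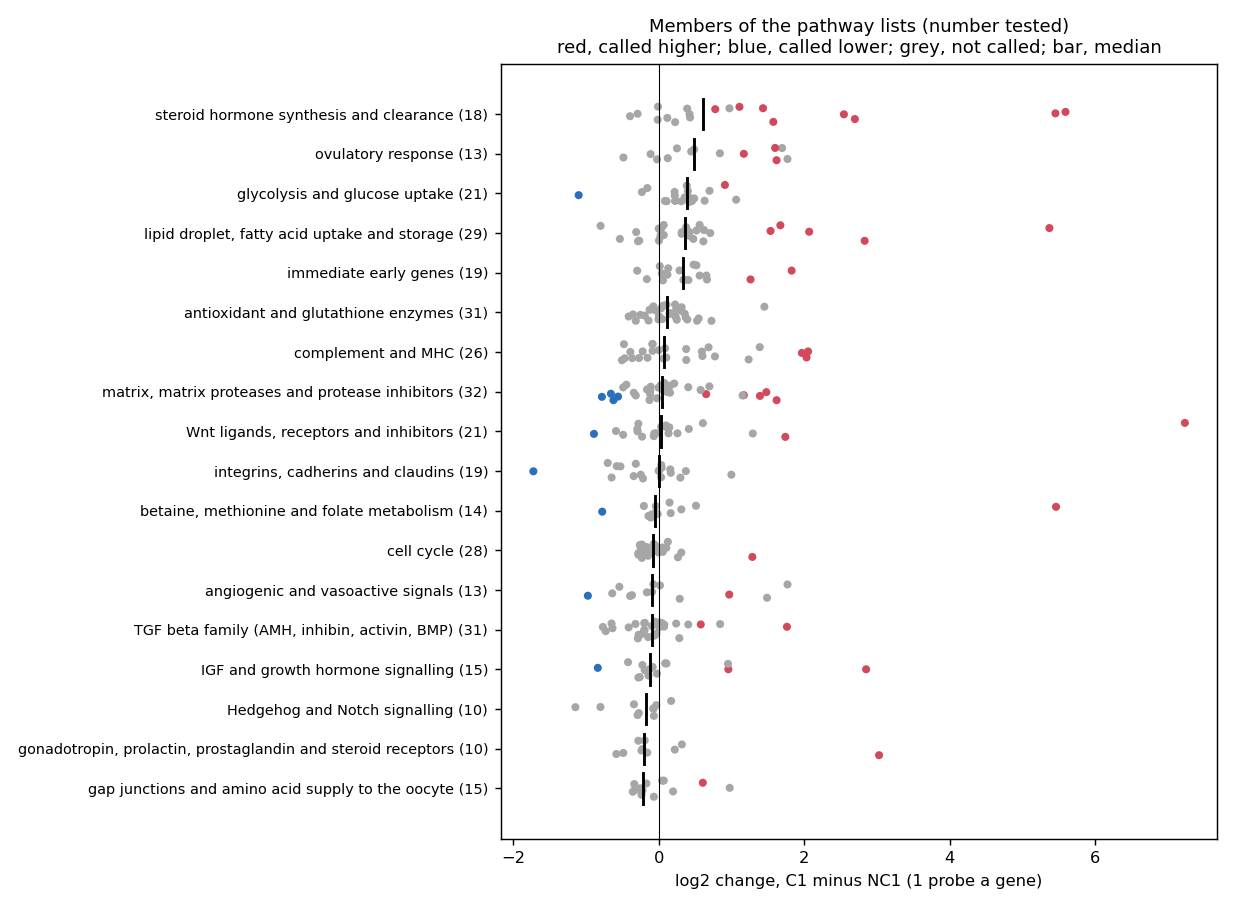
Log2 change, C1 minus NC1 (x), of each tested member of the 18 pathway lists (y, with the number tested), 1 probe a gene. Red points were called higher, blue points called lower, grey points not called, and the black bar is the median of the list; steroid synthesis has 8 red points of 18 and a median of 0.60, while most lists have medians near 0.

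Sign and size of small medians depended on the scaling. For the TGF beta, Wnt, betaine, cell cycle, integrin, matrix, angiogenic, IGF, and complement and MHC lists the median took either sign among the scalings tried. For the steroid, ovulatory, lipid, glycolysis and immediate early lists it was positive under each of them, from 0.50 to 0.75 for steroid synthesis.

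The genes that were lower at C1 were led by the haemoglobins. Hbb-bt was at 5.01, 5.62, 2.63, 2.52 and 2.98 at NC1 and at -0.09, 0.23, -0.73, 0.76 and 1.20 at C1. NC1 replicates 1 and 2 were the highest, and the other juvenile arrays were above all adult ones. Its change was -3.48 ± 0.58, or 11.1-fold lower (limma, adjusted p = 0.0013), and it was -2.44, or 5.41-fold lower, without NC1 replicates 1 and 2. Hbb-b2, Hba-a1 and Hba-a2 were 10.7-fold, 8.70-fold and 7.16-fold lower, and 5.04-fold, 4.23-fold and 4.24-fold lower without these arrays, where Hba-a1 was not called (adjusted p = 0.0149). The call of Hba-a1 was lost without NC1 replicate 1 or any of C1 replicates 1 to 3 (adjusted p up to 0.0127), and in a fit of the 10 prophase I arrays alone. None of the 4 was called with unmoderated variances, where the adjusted p was 0.0108 to 0.0218, and only Hba-a2 was called without C1 replicates 3 and 4. Since alpha genes are near-identical among themselves and beta genes likewise, the 4 cannot be read as separate results.

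Haemoglobin transcripts mark red blood cells, and the other markers of these cells were read beside them. Of 22 genes on the list 7 were tested and 4 were called, all lower, with a median change of -2.84. The haem synthesis enzyme of red cells, Alas2, was at 0.99, 1.65, -0.45, -0.52 and -0.15 at NC1 and at -1.36, -0.79, -1.10, -1.14 and -0.01 at C1 (limma, adjusted p = 0.126). Slc4a1 was above background in 3 NC1 arrays and no C1 array, and Epb42 and Rhag in none. Fech and Bpgm, of haem synthesis and red cell glycolysis, had changes of -0.22 and -0.21 and were not called. Ank1, Klf1 and Rhd did not pass at C2, and in the test over the probes present at NC1 and C1 they had changes of -0.10, 0.16 and -0.31, none called. The summed level of the list was 344, 450, 83.9, 97.0 and 118 in the NC1 arrays and 24.2, 25.3, 19.7, 41.2 and 53.4 in the C1 arrays, on a linear scale where 1 is the array's median probe. The 4 haemoglobins made up at least 86.9% of this sum in every NC1 array and at least 50.9% in every C1 array, so that it is no independent measure of red blood cells. The other 6 members summed to 10.3 to 14.4 at NC1 and 8.40 to 10.7 at C1, and the stages overlapped. The part of carried-over blood in the other lower genes was not tested.

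Beyond haemoglobins, a ribosomal protein locus had the lowest changes. The probe of Rps4l-ps was at 0.47, 0.39, 0.52, 0.68 and 0.48 at NC1 and at -2.15, -1.99, -1.58, -1.74 and -2.00 at C1. Both stages were tight, and the change was -2.40 ± 0.15, 5.27-fold lower (limma, adjusted p = 6.5e-08). Rps4l was 4.84-fold lower (limma, adjusted p = 4.54e-07). These are copies of the ribosomal protein gene Rps4x, and signal shared among them leaves the identity of the transcript uncertain. Prg4, the lubricin proteoglycan, was at 0.28, 0.27, -0.15, 0.14 and -0.11 at NC1 and at -1.65, -2.15, -1.61, -1.44 and -1.70 at C1. It was 3.47-fold lower (limma, adjusted p = 8.42e-07). Rarres2, the precursor of the chemoattractant chemerin, ranged from 3.66 to 4.11 at NC1 and from 1.97 to 2.58 at C1, 2.92-fold lower (limma, adjusted p = 0.00147), and had a C2 mean of -3.09. Scube2, a secreted protein that releases Hedgehog ligands, was 2.91-fold lower and had a C2 mean of -3.39.

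The other genes among the 15 lowest were Ip6k3, an inositol hexakisphosphate kinase, the homeobox factor Meis1, Rufy4, the synaptotagmin Syt13 and the secreted protein Nell1, which were 2.91-fold, 2.69-fold, 2.62-fold, 2.54-fold and 2.48-fold lower. Ip6k3 and Rufy4 were above background in 4 of 5 C1 arrays. Their changes were -1.54 and -1.39, and as small as -0.88 and -0.92 under the alternative fits, where both stayed called. Meis1 was at -0.09, 0.04, -0.18, -0.26 and -0.19 at NC1 and at -1.76, -1.92, -1.52, -1.42 and -1.19 at C1. All of the 15 lowest were picked among called genes without overlap, so that every adult array was below every juvenile array. Rarres2 was not called without NC1 replicates 1 and 2 or without C1 replicates 3 and 4, nor with unmoderated variances. Syt13 was not called without C1 replicates 3 and 4, and neither Syt13 nor Nell1 was called with spike-in scaling.

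**Figure D4:**
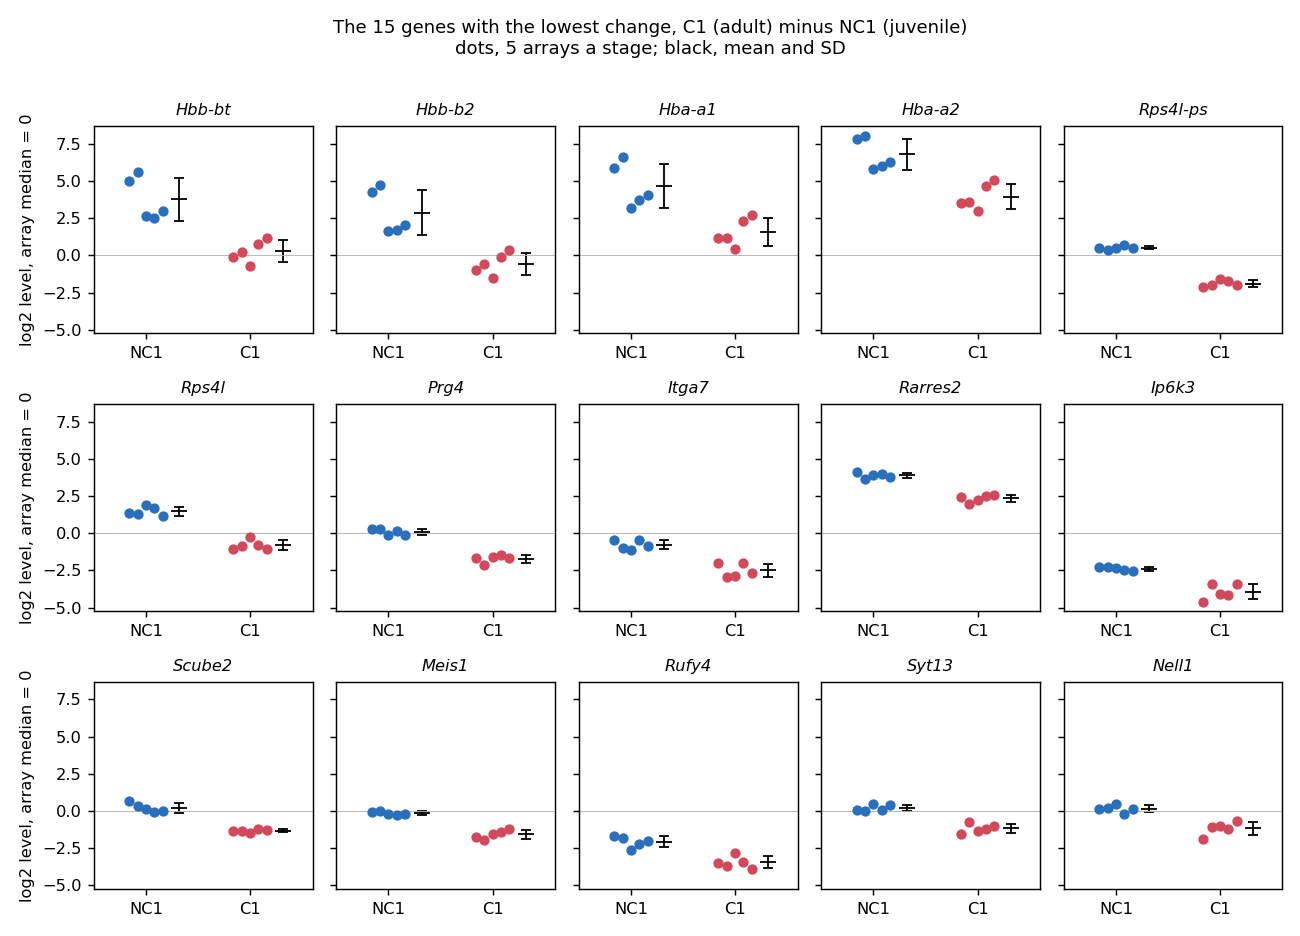
Log2 level (y, array median = 0) of the 15 genes with the lowest change among called genes without overlap, by stage (x). Dots are the 5 arrays of NC1 (blue) and of C1 (red), in the order of the replicate numbers, and the black marks give mean and SD. In the 4 haemoglobin panels NC1 replicates 1 and 2 stand above the other juvenile arrays, while Rps4l-ps has an SD of 0.11 at NC1 and 0.23 at C1.

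The 3 called genes of the complement and MHC list belong to class II antigen presentation. H2-Ab1, a class II chain that presents peptides to T cells, was at -2.24, -1.73, -2.83, -3.06 and -2.81 at NC1 and at 0.20, -0.69, -0.97, -1.04 and -0.01 at C1. The change was 2.03 ± 0.29, 4.09-fold (limma, adjusted p = 0.000291). H2-Eb1, another class II chain whose promoter stretch is given above, was at -0.51, -0.36, -1.22, -1.51 and -1.33 at NC1 and at 1.62, 0.94, 0.74, 0.50 and 1.55 at C1, 4.15-fold higher. Cd74, the invariant chain that escorts class II molecules, was 3.91-fold higher. The stages did not overlap for these 3 genes, and their folds were 5.27, 5.36 and 5.57 without NC1 replicates 1 and 2. Of 26 tested members of the list these 3 were called higher and none was called lower, 15 had a positive change, and the median was 0.08. The class I genes H2-K1, H2-Q7 and H2-T23 had changes of -0.27, -0.37 and -0.39, none of them called. Ciita, the factor that switches class II genes on, ranged from -4.44 to -3.72 at NC1 and from -4.39 to -3.51 at C1.

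Class II genes also mark leukocytes. Of 30 leukocyte markers 14 were tested and 4 were called, the 3 class II genes and Cd52, which was 2.29-fold higher with a call lost when any of 5 arrays was left out (adjusted p up to 0.0139). In all 12 of the 14 were higher, 11 had an unadjusted p under 0.05, and the median change was 0.92. For 9 of the 14 the stages did not overlap, against 6.48% of all genes. Cx3cr1 did not pass at C2. Tested over the probes present at NC1 and C1, it was 2.33-fold higher and not called (limma, adjusted p = 0.0406). The complement C1q chains of macrophages, C1qa, C1qb and C1qc, had changes of 1.39, 0.77 and 1.24 and were not called. The pan-leukocyte gene Ptprc was above background in 1 array of each stage, and Spi1, Laptm5 and Cd79a in none. The summed level was 8.44, 9.15, 5.06, 5.44 and 6.80 at NC1 and 12.4, 10.5, 9.28, 8.49 and 12.0 at C1. The ranges met, with NC1 replicate 2 above C1 replicate 4. Whether leukocytes account for the class II genes was not tested.

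Markers of luteal cells were read beside the steroid results, because an adult ovary can hold corpora lutea. The list shares all its members but Cyp11b1 and Parm1 with the results above, so that it is no independent measure of carried-over luteal cells. Of 8 tested members 6 were called, all higher at C1, with a median change of 2.30, and Parm1 and Hsd3b1 had changes of 0.67 and 0.12. Cyp11b1 was above background in 0 NC1 and 2 C1 arrays. The summed level was 110 to 173 at NC1 and 200 to 265 at C1. Most of this sum at NC1 came from Hsd3b1, at the levels given above, so that it follows the other members only in part. Of 4 tested mural granulosa markers 1 was called, Cyp11a1 described above, and the median change was 0.35. Cd34, Kctd14 and Fstl1 had changes of 0.83, -0.12 and -0.67 and were not called, and Lhcgr is given above by its bound. The summed level was 216 to 328 at NC1 and 232 to 299 at C1. The part of luteal or mural cells in the higher genes was not tested.

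RNA of the oocyte was present in all arrays. None of the 7 tested oocyte markers was called by limma or had an unadjusted p under 0.05. Another 16 markers did not pass at C2. Tested over the probes present at NC1 and C1, they had a median change of -0.19, and none was called, among them Zp3 of the zona pellucida at -0.30 and Bmp15 at -0.24. Gdf9, the growth factor of the oocyte, was at 4.07, 3.74, 2.73, 1.49 and 2.64 at NC1 and at 3.58, 2.72, 3.33, 2.34 and 2.04 at C1. The summed level was 79.6, 70.2, 31.8, 23.6 and 31.7 at NC1 and 68.0, 38.6, 56.4, 28.2 and 26.0 at C1. It was high in NC1 replicates 1 and 2 and in C1 replicates 1 and 3, and the stages overlapped.

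Of 12 tested markers of theca and stroma none was called by limma, 6 had an unadjusted p under 0.05, and the median change was -0.33. Aldh1a1, Mgp, Tagln and Col1a2 had changes of 0.55, -0.11, -0.77 and -0.59. The summed level was 94.0, 59.4, 34.0, 32.7 and 39.0 at NC1 and 38.3, 37.4, 36.8, 34.1 and 53.0 at C1, highest in NC1 replicates 1 and 2 and in C1 replicate 5. Of 5 tested endothelial markers none was called by limma and 3 had an unadjusted p under 0.05, with changes of 0.97 for Mmrn2, 0.82 for Esam, 0.32 for Egfl7, 0.17 for Cdh5 and -0.07 for Kdr. Of 5 endothelial markers that did not pass at C2, tested over the probes present at NC1 and C1, 4 had a positive change, and the median was 0.82. Flt1 was called higher (2.74-fold), while Robo4, Cldn5, Eng and Sox18 had changes of 1.29, 0.82, 0.78 and -0.38 and were not called. The 8 stroma markers and 5 epithelial markers added in that test had median changes of -0.44 and 0.42, and none was called. A positive change was seen for 2 of these stroma markers and for all 5 epithelial ones. The largest of the 5 was that of Krt7 (2.22-fold, limma, adjusted p = 0.0435). Of 4 tested markers of the ovarian surface epithelium none was called and 2 had an unadjusted p under 0.05, with changes of 0.60 for Krt18 and 0.36 for Krt8. All 4 had a positive change. The summed epithelial level was 8.14 to 10.8 at NC1 and 8.58 to 15.3 at C1, and the stages overlapped. The platelet factor Pf4 had a change of 0.56 and was not called. The summed endothelial level was 6.62 to 8.69 at NC1 and 7.60 to 11.6 at C1.

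**Figure D5:**
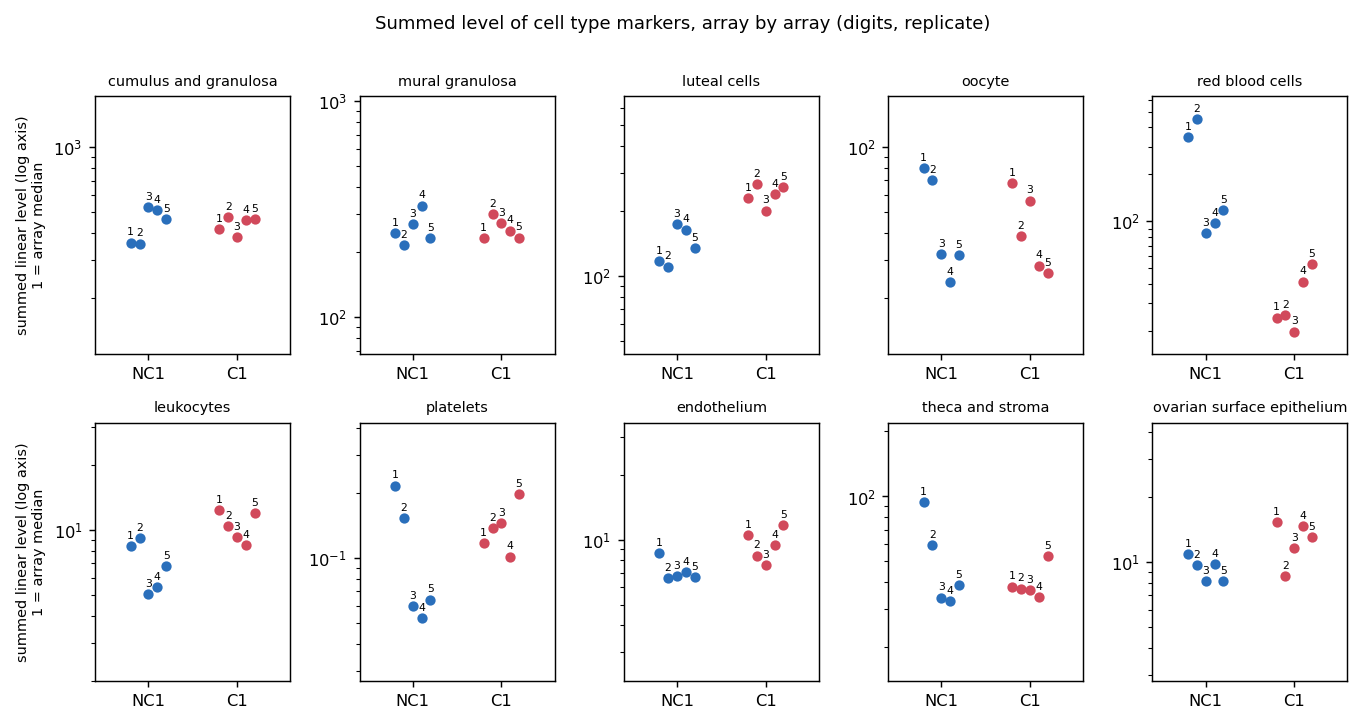
Summed linear level of the markers of 10 cell types (y, log axis, 1 = array median) in each NC1 (blue) and C1 (red) array, with the replicate number above each dot. Red blood cell markers, mostly haemoglobins, separate the stages, from 83.9 to 450 at NC1 and from 19.7 to 53.4 at C1, and luteal markers lie at 110 to 173 and 200 to 265, while the oocyte, stroma and granulosa sums overlap.

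Across the 70 called genes named in the text and its lists, 41 kept their call under all 28 alternatives with a test and under both other thresholds, and none changed direction. A total of 17 lost the call when 1 array was left out, as given beside each. Aldoc, Cst3, Ctsb, Dkkl1, Lamb1, Mmp11, Mmp23, Nos2, Sardh, Slc1a5, Smad1, Stc2 and Vegfa were not called with spike-in scaling or with the values as deposited, Igfbp4 and Slc2a4 lost the call with spike-in scaling, and Ctss and Mgll with the values as deposited. With the slide as a block, Cd52, Cst3, Ctss, Igfbp4, Mgll, Mmp23, Sardh, Slc1a5, Smad1 and Vegfa were not called. In a fit of the 10 prophase I arrays alone, Aldoc, Atf3, Cd52, Cst3, Ctsb, Dkkl1, Dusp1 and Fdxr were among the genes not called. Hba-a1, Igfbp4, Mgll, Mmp23, Slc1a5, Smad1 and Stc2 were not called there either.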

How the data were processed

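Total RNA of mouse cumulus cells was hybridised to 1-colour Agilent whole genome arrays, 1 array a pool. Spots were read with Feature Extraction (10.7.1.1 per the file headers, 10.5.1.1 per the submitters' processing notes). The values used are the log2 intensities that the authors deposited, filtered by them to probes present in at least 80% of the arrays of any 1 stage. Each column equalled the log2 of the scanner's processed signal plus 1 constant an array (largest SD of the difference 0.00742). The deposited scanner intensity served for the flags, for the spike-in scaling and for normexp background correction (offset 50), which used the median spot and background signals, since the mean signal was not in the files given. Here each array's median over the 17342 gene probes present at all 3 stages was subtracted. Of 20855 gene probes in the table, 16289 were named by accession through the RefSeq table (GRCm38.p6), 1446 by symbol or synonym, 1324 by the table's own symbol, and 1796 had no name.

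The stages were compared with limma 3.58.1 in R 4.3.3, in 1 model over the 15 arrays with no block, as the contrast C1 minus NC1, two-sided, with Benjamini-Hochberg adjustment over the 17342 probes. On simulated data with 200 changed probes among 17342, the test recovered 20%, 78% and 94% of changes of 0.5, 1 and 2 on the log2 scale, with 2 false calls. The simulated noise was independent, with the same SD at every stage for a probe and no slide or array effects. These rates therefore need not hold for the arrays themselves. Precision is limited by the number of arrays, and a p that misses the threshold does not show that levels were equal. For a gene with several tested probes the one with the highest mean over all arrays was used.

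The genes named are Sfrp4, Cyp11a1 and Akr1c18, the 15 highest and 15 lowest changes among called genes without overlap, the called members of 18 pathway and 10 marker lists with up to 4 uncalled members of the highest mean level, and the 5 largest bounds. A bound sets the C1 mean against a floor averaged over the NC1 arrays, where the floor of an array is its lowest signal scored as clear of background, or the probe's own signal if that is higher. Other genes named (Lhcgr, Stard4, Cyp19a1, Cyp17a1, Tnfaip6, Ciita, Alas2, the C1q chains, Gjc1, Slc38a4, the other members tested only at NC1 and C1, and members given only as above background or not) were chosen after their values were seen. Cholesterol synthesis is left out. A few list members are counted in their lists but not reported here by name. The comparison, the lists and the tests were chosen with earlier results of these data known. Alternatives covered the scaling, the source and background of the values, the filter, the arrays in the fit, a block for the slide or the replicate number, the variance and the threshold. The slide and the scan coincide, so a separate block for the scan day was not run.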

Additional observations from a re-analysis of the deposited data

Results flagged for a closer look

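Among 5 arrays, a value was listed when its gap to the nearest other, divided by the range, exceeded 0.710. This held for 17 of 324 groups (5.25%), where chance gives about 1 in 20. C1 replicate 3, C1 replicate 5 and NC1 replicate 1 gave 4 each and NC1 replicate 4 gave 3. No cause was tested.

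In C1 replicate 3, Hsd17b7 (ratio 0.939) and Scd1 (0.807) were the lowest of their group, at -1.25 and -2.11 against at least 1.34 and -0.80 in the others, while Ldha (0.751) and Pcna (0.750) were the highest, at 6.95 and 4.10. In C1 replicate 5, Aldh1a1 (0.726), Plin3 (0.836) and the summed stroma markers (0.737) were the highest and Dkk3 (0.786) was the lowest. In C1 replicate 1, Hsd17b4 (0.883) was the lowest, at 2.92 against 3.08 to 3.10. In C1 replicate 4, Lrp6 (0.784) was the highest, at 2.85 against 2.01 to 2.19. In NC1 replicate 1, Wnt5a (0.807), Ppp1r14a (0.819), Ramp2 (0.772) and the summed endothelial markers (0.748) were the highest, with Ppp1r14a at -2.12 against -3.37 to -3.15. In NC1 replicate 4, Aldoa (0.749), Pcna (0.823) and Prdx1 (0.719) were the lowest, at 2.87, 2.25 and 3.30.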

How the results depend on the processing

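The 440 called probes became 271 with the values as deposited, 260 with spike-in scaling, 868 at an adjusted p of 0.05, 283 with a 2-fold limit added, and 313 to 466 when 1 array was left out. Of the 440, 254 were still called with the values as deposited and 227 with spike-in scaling, and none changed sign in either. Counts under the other alternatives lay between 306 (variances not moderated) and 612 (no filter on dim probes, 20855 probes tested). With variances not moderated, 288 of the 440 were still called. A fit of the 10 prophase I arrays alone called 334 probes, 311 of them among the 440. The share of called probes that were higher, 69.5%, became 91.2% with spike-in scaling (237 higher and 23 lower), 64.3% at an adjusted p of 0.05, 82.7% with the 2-fold limit, 78.3% without C1 replicates 3 and 4, 75.6% without NC1 replicates 1 and 2, and 69.4 to 74.1% when 1 array was left out. The cause of the shift with spike-in scaling was not tested beyond the median change of all probes, which moved to 0.12. Of 50 tested markers of carried-over cells 8 were called, beside 2.94% of all genes. These were the 4 haemoglobins, lower at C1, and 4 leukocyte markers, higher at C1. The count of 8 became 3 with variances not moderated, 5 without C1 replicates 3 and 4, 13 at an adjusted p of 0.05 and 7 to 8 when 1 array was left out. The probes above background at C1 alone numbered 35 to 60, and those at NC1 alone 1 to 32, when 1 array was left out. With the replicate block 405 probes were called, 372 of them among the 440. The correlation of deviations between arrays of the same number was 0.07, 0.34, 0.05, 0.34 and 0.34, and not every array correlated best with its own number, so the arrays share only a number and no pairing was assumed. Leaving out pairs of arrays was chosen after seeing the data. Signal over background limits the dim genes: normexp lowered the bounds of the 5 genes named from 20.6 to 36.6 to a range of 8.19 to 14.8.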

Other observations

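Further called genes outside the rule for naming, chosen after their values were seen, were higher at C1. The metallothioneins Mt2 and Mt1, which bind zinc and copper, were 5.49-fold and 1.88-fold higher (limma, adjusted p = 1.38e-06 and 0.000193). Mt2 ranged from 1.93 to 2.14 at NC1 and from 3.81 to 5.19 at C1, and the ranges of Mt1 did not meet either. Of enzymes that supply NADPH and acetyl-CoA, Idh1 was 3.66-fold, Me1 3.33-fold and Acly 2.01-fold higher, the last not called without NC1 replicates 1 and 2 (adjusted p = 0.0124). The desaturases Fads2 and Fads3 were 3.46-fold and 3.91-fold higher. Sgk1, a kinase induced by steroids, was 5.94-fold higher (limma, adjusted p = 9.04e-08), and Cish, an inhibitor of cytokine receptor signalling that prolactin is known to induce, was 4.87-fold higher (limma, adjusted p = 1.53e-05). Srxn1 and Osgin1, known from the response to oxidants, were 3.40-fold and 5.60-fold higher. They are not on the antioxidant and glutathione list above, of which none of 31 tested members was called and the median change was 0.11.

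Some genes known from the response to interferon were called as well. Ifi204 was 3.22-fold, Tgtp2 3.25-fold, Ifi27l2a 3.51-fold and Oas1a 2.54-fold higher. The calls of Ifi27l2a and Oas1a were lost when any of 4 and 3 arrays were left out (adjusted p up to 0.0120 and 0.0132), and Oas1a was not called with the slide as a block (adjusted p = 0.0107). Their share among all such genes was not tested. Lower genes chosen in the same way were the growth factor Mdk, 2.33-fold lower (limma, adjusted p = 0.00279), and Ccdc80, 1.75-fold lower (limma, adjusted p = 0.000742), both with calls that remained when any 1 array was left out. Vit, Ntn4, Fras1 and the collagen chain Col5a2 were 2.45-fold, 2.06-fold, 1.88-fold and 1.84-fold lower, with calls lost without 1 array or any of 7, 8 and 6 arrays (adjusted p up to 0.0103, 0.0156, 0.0261 and 0.0156).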
